A study of Mus musculus with 12 samples.

Results

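The genes described here encode the translation initiation factors and the kinases of eIF2 in NE-4C cells, a neural progenitor line derived from the brain of an E9 mouse embryo. Members were the genes of the count table whose symbol begins with Eif followed by a digit from 1 to 6, leaving out Eif2s3y and the pseudogene symbols. Of the 57010 genes in the table, 74 were members and 53 of these had enough counts to be tested. The 21 members that were not tested never exceeded 14 counts in a library, 7 of them had no count in any library, and 17 of them were Eif1ad copies.

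The study compared wild-type cells (WT) with a knockout line (KO), a single line in which CRISPR deleted exon 4 of Faf2. FAF2 is an adaptor of endoplasmic reticulum associated degradation, the route by which misfolded proteins leave the endoplasmic reticulum for destruction. Each genotype was collected untreated (NO) or 3 days after the start of induction with 1 uM all-trans retinoic acid (RA) for 24 h, which drives NE-4C cells towards neurons. Each of the 4 groups (WT NO, WT RA, KO NO, KO RA) held 3 libraries from independent passages of the same line, so the p-values below measure the spread between passages.

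Initiation begins when eIF2, loaded with GTP and the initiator tRNA, joins the small ribosomal subunit together with eIF1, eIF1A, eIF3 and eIF5. The cap complex, in which eIF4E binds the mRNA cap, eIF4G is the scaffold and eIF4A is the helicase, brings the mRNA to this particle. The exchange factor eIF2B recharges eIF2, and the kinases encoded by Eif2ak1 to Eif2ak4 (HRI, PKR, PERK and GCN2) block that exchange by phosphorylating the alpha subunit of eIF2. PERK is the kinase that responds to misfolded protein in the endoplasmic reticulum. Phosphorylation was not measured here, and all values below are transcript levels.

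The libraries held between 17370049 and 30738694 estimated counts. KO RA replicate 3 stood apart: its TMM factor, which corrects for composition, was 0.394 against 0.872 to 1.28 in the other 11 libraries. Its 10 mesenchymal markers summed to 1392 CPM (56.4 to 384 CPM in the other libraries) and its 6 pluripotency markers to 542 CPM (61.9 to 142 CPM). Its 10 neuron markers summed to 277 CPM, also above the other libraries (76.6 to 209 CPM). Its 5 neural progenitor markers summed to 169 CPM, below the other libraries (253 to 324 CPM), but these markers were divided. Otx2 was below all other libraries (19.4 against 81.9 to 163 CPM) and Nes above them (75.0 against 31.2 to 64.1 CPM). Sox2, Pax6 and Cdh2 were within the range of the others. The part of these differences in the results was not tested, and fewer cells of a type and less RNA per cell cannot be told apart in bulk samples. Haematopoietic markers summed to at most 5.72 CPM and endothelial markers to at most 23.5 CPM in every library. Each comparison is therefore given with all 12 libraries and again without KO RA replicate 3.

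Faf2 itself was at 49.97, 38.8 and 36.0 CPM in WT NO and at 21.01, 21.7 and 25.4 CPM in KO NO. In RA-treated cells it was at 35.1, 37.8 and 49.0 CPM in WT and at 36.1, 34.3 and 18.7 CPM in KO. The untreated groups did not overlap, whereas the libraries labelled KO RA overlapped those of WT RA. Without KO RA replicate 3, KO NO against WT NO gave -0.86 ± 0.16 on the log2 scale (adjusted p = 0.0111, edgeR). KO RA against WT RA then gave -0.21 ± 0.18 (0.489), and Faf2 was called higher in KO RA than in KO NO (0.62 ± 0.18, 0.0382). With all libraries these values were -0.87, -0.45 and 0.39 (adjusted p = 0.179, 0.395 and 0.377, edgeR). Counts over the whole gene do not show whether exon 4 is present, so in RA-treated cells they are no check of the genotype label.

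Transcript levels of the 53 tested members are given as CPM computed from length-corrected counts, so that genes can be compared. They spanned a wide range in some complexes and a narrow one in others. In WT NO the helicase gene Eif4a1 averaged 1558 CPM and Eif5a, which encodes a hypusine-modified factor that assists elongation, averaged 1695 CPM. Eif4g2, which encodes an eIF4G relative that does not bind the cap-binding protein, averaged 1063 CPM. The 14 genes of eIF3, the scaffold on the small subunit, ran from 39.5 CPM (Eif3j2) to 434 CPM (Eif3h), a range of 10.99-fold. The 5 eIF2B genes were much closer together, from 54.6 CPM (Eif2b5) to 99.95 CPM (Eif2b2), a range of 1.83-fold. The kinases were low, from 2.501 CPM for Eif2ak2 (PKR) to 22.0 CPM for Eif2ak1 (HRI). Eif3j1 and Eif3j2 share 99.2% of their coding sequence, so the division of reads between them is uncertain.

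**Figure D1:**
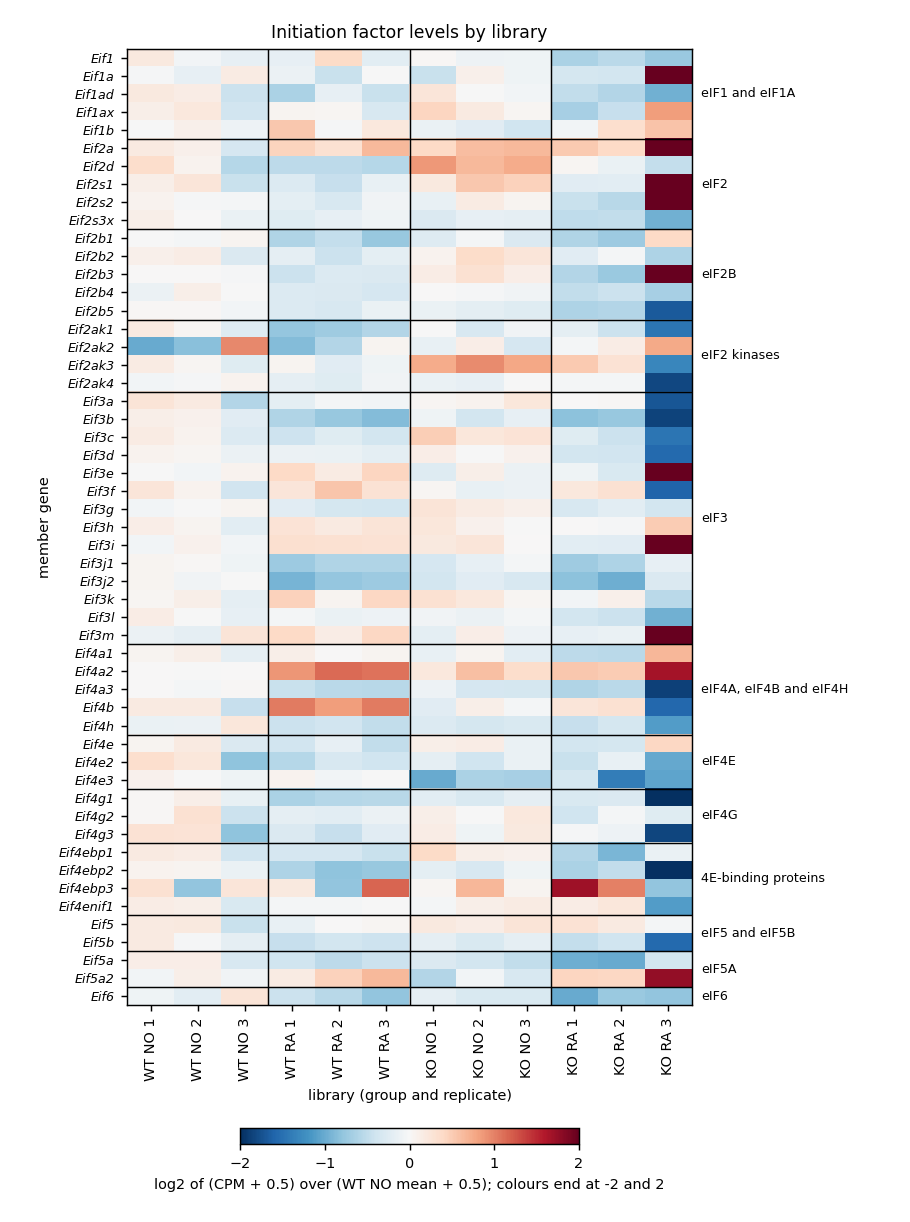
Levels of the 53 tested members (rows, grouped by complex) in the 12 libraries (columns), as log2 of CPM plus 0.5 over the WT NO mean plus 0.5. KO RA replicate 3 is unlike every other library in most rows, and Eif4a2 and Eif4b are red in all WT RA libraries.

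The comparison of untreated KO with untreated WT shows how the KO line differed from WT before differentiation. With a single KO line, loss of FAF2 and other traits of that line cannot be told apart in any comparison of genotypes. With all 12 libraries, none of the 53 members passed an adjusted p of 0.05 in edgeR's quasi-likelihood test, where 0.788% of all genes tested were called higher and 0.351% lower. An unadjusted p under 0.05 was reached by 2 members with higher and 1 with lower levels, and DESeq2 called 1 member. Without KO RA replicate 3, 3 members rose in KO and none fell, against 4.43% of all genes called higher and 4.35% lower. On the same libraries DESeq2 called 4 members higher and 4 lower and limma-voom 4 higher and 5 lower. Shares of all genes called were taken only at the adjusted p, for edgeR with all libraries and without KO RA replicate 3. Here and below, counts at an unadjusted p, from other tests or with further libraries left out have no such share beside them. The pluripotency markers summed to 61.9 to 78.6 CPM in WT NO and to 124 to 142 CPM in KO NO, and the mesenchymal markers to 59.0 to 103 CPM and 56.4 to 57.5 CPM. Neither sum overlapped between the groups, and their part in the members' values was not tested. The median log2 fold change of the members was -0.04, beside -0.01 for all genes tested. The 3 that rose were Eif2ak3, Eif2d and Eif2a. With 1 further library left out, 7 members (4 higher and 3 lower) were called without WT NO replicate 3, 0 without KO NO replicate 2, and 1 without any of WT NO replicate 2, WT RA replicates 1 and 3, KO NO replicates 1 and 3 and KO RA replicates 1 and 2.

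Eif2ak3, which encodes PERK, was at 6.12, 5.58 and 4.45 CPM in WT NO and at 9.395, 10.9 and 9.60 CPM in KO NO. Every KO NO library was above every WT NO library. Without KO RA replicate 3 the log2 fold change was 0.90 ± 0.17 (SE, adjusted p = 0.0123, edgeR), and with all libraries it was 0.89 ± 0.40 (adjusted p = 0.401). The gene lies at chr6:70821461-70882235 on the plus strand of GRCm39. It was the 1 kinase gene of 4 that rose. Eif2ak4, which encodes the amino acid sensor GCN2, gave -0.09 ± 0.13, Eif2ak1 gave -0.12 ± 0.15 and Eif2ak2 gave -0.13 ± 0.58 on the log2 scale. Eif2ak2 was at 5.34 CPM in WT NO replicate 3 but at 0.985 and 1.18 CPM in the other WT NO libraries.

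Eif2d encodes eIF2D, a factor that can place tRNA on the small subunit without eIF2 and takes part in ribosome recycling. It was at 46.8, 38.5 and 24.5 CPM in WT NO and at 67.1, 57.4 and 61.3 CPM in KO NO. The log2 fold change without KO RA replicate 3 was 0.77 ± 0.19 (adjusted p = 0.0337, edgeR), and with all libraries 0.76 ± 0.24 (adjusted p = 0.200). Eif2a encodes eIF2A, a separate initiator tRNA factor that is not the phosphorylated alpha subunit of eIF2. It was at 104, 97.6 and 71.7 CPM in WT NO and at 120, 139 and 143 CPM in KO NO, with a log2 fold change of 0.57 ± 0.15 (adjusted p = 0.0399, edgeR, without KO RA replicate 3; 0.759 with all libraries). The groups did not overlap for either gene, and WT NO replicate 3 was the lowest library of both. Leaving out 1 further library in turn kept the call for Eif2ak3 in 10 of 11 fits, for Eif2d in 3 and for Eif2a in 3. The largest adjusted p among those fits was 0.0528 for Eif2ak3 (without KO NO replicate 2), 0.109 for Eif2d and 0.124 for Eif2a.

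The alpha subunit itself, encoded by Eif2s1, was at 119, 131 and 80.5 CPM in WT NO and at 126, 160 and 151 CPM in KO NO, overlapping groups that gave 0.42 ± 0.17 (adjusted p = 0.152, edgeR, without KO RA replicate 3). The 5 eIF2B genes lay between -0.18 and 0.24 and the 14 eIF3 genes between -0.30 and 0.34 on the log2 scale, with none called. Eif4e3, which encodes a minor cap-binding relative of eIF4E, had the most negative value of the members, -0.91 ± 0.33 (adjusted p = 0.115). It was at 2.99 to 3.45 CPM in WT NO and at 1.35 to 1.89 CPM in KO NO, with no overlap. In all, 7 members were higher and 8 lower without overlap between the groups, where 15.5% and 15.2% of all genes were.

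The 250 bases upstream of the annotated starts of the 3 genes that rose in untreated KO are shown because these were the members called in that comparison, the gene of the endoplasmic reticulum kinase among them. The sequences are RefSeq's, on the plus strand of GRCm38.p6, at chr6:70844265-70844514 for Eif2ak3, chr1:131152957-131153206 for Eif2d and chr3:58525571-58525820 for Eif2a. Capitals mark CCAAT read on either strand.
Eif2ak3: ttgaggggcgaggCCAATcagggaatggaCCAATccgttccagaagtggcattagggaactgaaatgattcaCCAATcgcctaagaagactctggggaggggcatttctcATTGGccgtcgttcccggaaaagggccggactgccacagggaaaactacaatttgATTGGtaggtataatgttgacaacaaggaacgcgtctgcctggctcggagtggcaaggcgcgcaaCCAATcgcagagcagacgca
Eif2d: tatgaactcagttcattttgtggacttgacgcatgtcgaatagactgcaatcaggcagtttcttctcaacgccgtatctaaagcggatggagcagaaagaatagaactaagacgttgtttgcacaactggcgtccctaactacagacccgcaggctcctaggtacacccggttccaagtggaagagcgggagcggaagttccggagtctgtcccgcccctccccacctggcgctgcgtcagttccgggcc
Eif2a: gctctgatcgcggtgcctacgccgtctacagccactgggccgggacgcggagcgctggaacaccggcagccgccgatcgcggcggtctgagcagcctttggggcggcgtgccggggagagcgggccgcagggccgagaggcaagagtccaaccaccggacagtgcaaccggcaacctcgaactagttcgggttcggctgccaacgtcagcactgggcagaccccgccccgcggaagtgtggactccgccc
The Eif2ak3 window held 6 CCAAT copies, and the other windows held none. CCAAT was chosen after these sequences were seen. It occurred at least once in 33.9% of the 32851 RefSeq promoters cut to the same 250 bases, and 19 of them (0.0578%) held 6 or more. None of the 42 tested members with a promoter in the table held TGATGCAA (an ATF4 motif), TGACGTCA (a cAMP response element) or the endoplasmic reticulum stress element ERSE, read on either strand, and these occurred in 0.7915%, 1.546% and 0.1126% of all promoters. TGACGTGG (an unfolded protein response element), read on either strand, was in 1 of the 42, Eif3a (2.38%), and in 0.563% of all promoters. AAGATGGC (a YY1 motif) was also in 1, Eif4a1, and in 1.57% of all promoters. The E-box CACGTG, which reads the same on both strands, was in 9 of the 42 (21.4%) and in 6.02% of all promoters. A member was counted if any of its listed promoters held the motif, whereas the background was counted per promoter. The member and background shares are therefore not the same measure.

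**Figure D2:**
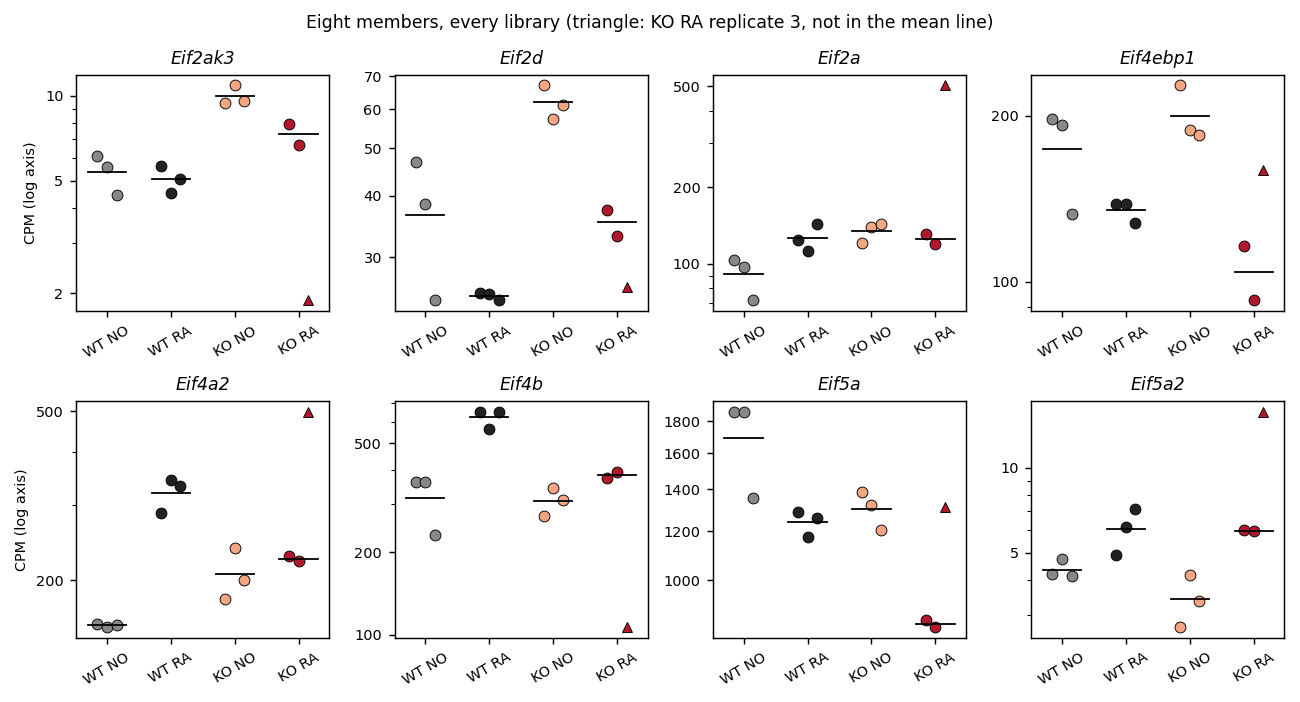
CPM of 8 members in each library on log axes, by group, with the mean as a line (KO RA: replicates 1 and 2) and KO RA replicate 3 as a triangle. Eif2ak3 is above 9 CPM in KO NO and below 7 CPM in WT NO, and the WT RA libraries of Eif4b, at 565 to 654 CPM, are above all others.

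The response of WT cells to RA, together with any effect of time in culture, was measured by setting WT RA against WT NO. With all 12 libraries no member passed the threshold in edgeR, where 0.321% of all genes were called higher and 0.0848% lower. An unadjusted p under 0.05 was reached by 2 members with higher and 6 with lower levels, and DESeq2 called 5 members lower. In the fit without KO RA replicate 3, 2 members rose (5.65% of all genes) and 11 fell (5.13% of all genes). The members' median log2 fold change was -0.19, beside -0.00 for all genes tested, and 38 of the 53 values were negative. For 18 members every WT RA library was below every WT NO library, where 14% of all genes were; 7 members were above, where 15.1% of all genes were. Without WT NO replicate 3 as well, 26 members were called. Marker sums moved alongside: the 10 neuron markers went from 85.7 to 118 CPM in WT NO to 155 to 176 CPM in WT RA and the mesenchymal markers from 59.0 to 103 CPM to 126 to 303 CPM. Their part in the members' values was not tested.

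The 2 genes that rose belong to the helicase group. Eif4a2, the second eIF4A helicase gene, was at 158, 156 and 157 CPM in WT NO and at 288, 344 and 333 CPM in WT RA. This was a log2 fold change of 1.04 ± 0.12 (adjusted p = 0.00162, edgeR, without KO RA replicate 3; 1.04 ± 0.31 and 0.198 with all libraries), or 2.06-fold. Eif4b, whose product stimulates the helicase, was at 360, 360 and 232 CPM in WT NO and at 654, 565 and 652 CPM in WT RA, with a log2 fold change of 0.98 ± 0.17 (adjusted p = 0.0076, edgeR; 0.358 with all libraries). Neither gene's groups overlapped, and both calls held in all 11 fits that left out a further library. The main helicase gene Eif4a1 overlapped between the groups (0.06 ± 0.11), while Eif4h, which encodes another helicase cofactor, gave -0.43 ± 0.12 (adjusted p = 0.0387, edgeR) and Eif4a3, which encodes the helicase of the exon junction complex, gave -0.51 ± 0.10 (0.0127).

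Among the other factors that fell in WT, Eif3j2 had the lowest value, -0.81 ± 0.11 (adjusted p = 0.00297, edgeR), with 41.2, 37.8 and 39.5 CPM in WT NO and 20.6, 22.9 and 23.7 CPM in WT RA. Its near-identical copy Eif3j1 gave -0.65 ± 0.11 and Eif3b, an eIF3 core subunit gene, gave -0.74 ± 0.13. The remaining eIF3 genes divided: Eif3e, Eif3f, Eif3h, Eif3i, Eif3k and Eif3m gave positive values (0.25 to 0.37, none called) and the others negative ones. Eif4ebp2, which encodes a repressor of eIF4E, fell by 0.73 on the log2 scale from 136, 134 and 118 CPM to 84.0, 73.6 and 75.9 CPM. Eif4g1, the scaffold of the cap complex, fell by 0.58, from 272, 289 and 241 CPM to 172, 179 and 182 CPM. Eif2ak1 (HRI) was the kinase gene that fell (-0.70 ± 0.15, adjusted p = 0.0168, edgeR), from 24.8, 22.7 and 18.4 CPM to 12.6, 13.3 and 14.4 CPM. Eif2b1, Eif5b and Eif6 also fell, by 0.61, 0.41 and 0.58 on the log2 scale. The calls for Eif5b and Eif4h were kept in 1 and 2 of 11 fits that left out a further library, those for Eif6, Eif2ak1 and Eif4a3 in 6, 7 and 10, and those for Eif2b1, Eif3b, Eif3j1, Eif3j2, Eif4ebp2 and Eif4g1 in all 11.

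The same comparison in KO cells set KO RA against KO NO. With all 12 libraries 1 member fell, Eif2d (-0.94 ± 0.25, adjusted p = 0.0492, edgeR), and none rose, where 3.89% of all genes were called higher and 1.59% lower. Without KO RA replicate 3, 1 member rose and 19 fell, against 8.48% of all genes called higher and 7.54% lower. The members' median log2 fold change was -0.33, beside -0.02 for all genes, and 43 of 53 values were negative. With all libraries the median was also -0.33, beside 0.11 for all genes, and 2 members were above and 21 below KO NO without overlap, where 13.2% and 17% of all genes were. The Eif2d call was lost without any of WT NO replicate 2, the libraries of WT RA and KO NO, and KO RA replicates 1 and 2. Without either of these KO RA libraries Eif5a2 was called higher instead. The calls without KO RA replicate 3 rest on KO RA replicates 1 and 2: leaving out replicate 1 as well left 3 calls and leaving out replicate 2 left 1, while 6 were left without KO NO replicate 1 and 11 without KO NO replicate 2, where a lone KO RA library was assumed to vary like the other groups. In these 2 libraries the neuron markers summed to 209 and 179 CPM (76.6 to 94.4 CPM in KO NO) and the mesenchymal markers to 384 and 215 CPM (56.4 to 57.5 CPM in KO NO), and their part was not tested.

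The 5 genes grouped here under eIF2 include Eif2a and Eif2d, whose products are not subunits of eIF2. Of these 5, Eif2s1, Eif2s2 and Eif2d fell without KO RA replicate 3, while the subunit gene Eif2s3x was not called. Of the eIF2B genes 4 of 5 (Eif2b1, Eif2b3, Eif2b4 and Eif2b5) fell, and all 10 values were negative. With all libraries the median of the 5 genes grouped under eIF2 was 0.90, with 3 of 5 positive. That of the eIF2B genes was -0.50, with 4 of 5 negative. Eif2b1 went from -0.50 to -0.03 when the third KO RA library was included and Eif2b5 from -0.43 to -0.70. Eif2b3, which encodes a subunit of the catalytic arm of eIF2B, had the smallest adjusted p of all members, with 64.9, 72.5 and 64.4 CPM in KO NO and 39.15 and 34.8 CPM in KO RA replicates 1 and 2. That was a log2 fold change of -0.87 ± 0.11 (adjusted p = 0.000991, edgeR). With KO RA replicate 3, at 242 CPM, the value turned to 0.65 ± 0.59 (adjusted p = 0.511). Eif2s1 fell by 0.64 on the log2 scale (adjusted p = 0.0466, edgeR), from 126, 160 and 151 CPM to 94.2 and 94.8 CPM, and Eif2s2, which encodes the beta subunit, fell by 0.54 (adjusted p = 0.0176). The third KO RA library held 629 CPM of Eif2s1 and 1362 CPM of Eif2s2, and both values turn positive when it is included. Eif2d was at 37.4 and 33.2 CPM in KO RA replicates 1 and 2 and at 26.1 CPM in replicate 3, below the 57.4 to 67.1 CPM of KO NO, and its log2 fold change without replicate 3 was -0.82 ± 0.22 (adjusted p = 0.0282, edgeR).

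Of the 14 eIF3 genes, 7 fell (Eif3b, Eif3c, Eif3d, Eif3g, Eif3i, Eif3j1 and Eif3j2, by 0.38 to 0.68 on the log2 scale) and 13 were negative. With all libraries Eif3i turned to 0.87, the other 6 stayed negative, from -0.95 (Eif3c) to -0.32 (Eif3j1), and 10 of the 14 were negative. Eif4ebp1, which encodes the main mTOR-regulated repressor of eIF4E, was at 227, 188 and 185 CPM in KO NO and at 116 and 92.5 CPM in KO RA replicates 1 and 2. Its log2 fold change was -0.95 ± 0.18 (adjusted p = 0.00716, edgeR), and 160 CPM in KO RA replicate 3 brought it to -0.71 ± 0.25 (0.128). In WT the same response was -0.36 ± 0.16 (0.174), with overlapping groups. Eif4ebp2 gave -0.37 ± 0.12 in KO (0.0633), and Eif4e, the cap-binding protein, gave -0.42 ± 0.16 (0.0975). Eif4ebp3 had at most 2.30 CPM and no count in WT NO replicate 2, WT RA replicate 2 and KO RA replicate 3. The floor of 3 estimated counts was 0.297 CPM in KO RA replicate 3, but these counts are not whole reads, so the floor is approximate. Eif1ax, Eif4a1 and Eif6 fell by 0.80, 0.45 and 0.62 on the log2 scale. Eif1ax was at 433 CPM in KO RA replicate 3, against 152 and 175 CPM in replicates 1 and 2 and 248 to 324 CPM in KO NO, and with all libraries its value was -0.16 ± 0.37. Eif4a1 turned to 0.08 with all libraries, and Eif6 gave -0.58.

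The 2 genes for eIF5A moved in opposite directions in KO without KO RA replicate 3. Eif5a went from 1386, 1321 and 1205 CPM to 863 and 842 CPM (-0.62 ± 0.15, adjusted p = 0.0185, edgeR), whereas Eif5a2, a paralog of restricted expression, went from 2.72, 4.14 and 3.38 CPM to 5.998 and 5.957 CPM (0.80 ± 0.23, 0.0402). Leaving out 1 further library in turn kept the calls of this comparison in 11 of 11 fits for Eif2b3, 10 for Eif3j2 and Eif4ebp1, 4 for Eif2d, 3 for Eif3i, 2 for Eif4a1 and 1 for Eif2s1, and in 6 to 9 for the others, Eif5a2 (6) and Eif5a (8) among them. Eif5a was at 1311 CPM in KO RA replicate 3, within the KO NO range, and with that library its log2 fold change was -0.38 ± 0.27 (0.401). Eif5a2 was at 15.8 CPM in KO RA replicate 3, and with that library its log2 fold change was 1.43 ± 0.38 (0.0531). In WT the values were -0.45 ± 0.13 (0.0552) and 0.48 ± 0.21 (0.168). The log2 ratio of Eif5a2 to Eif5a, which no library scaling can alter, was -8.80, -8.63 and -8.36 in WT NO and -8.04, -7.57 and -7.47 in WT RA. It was -8.99, -8.32 and -8.48 in KO NO and -7.17, -7.14 and -6.37 in KO RA, above KO NO in every library.

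**Figure D3:**
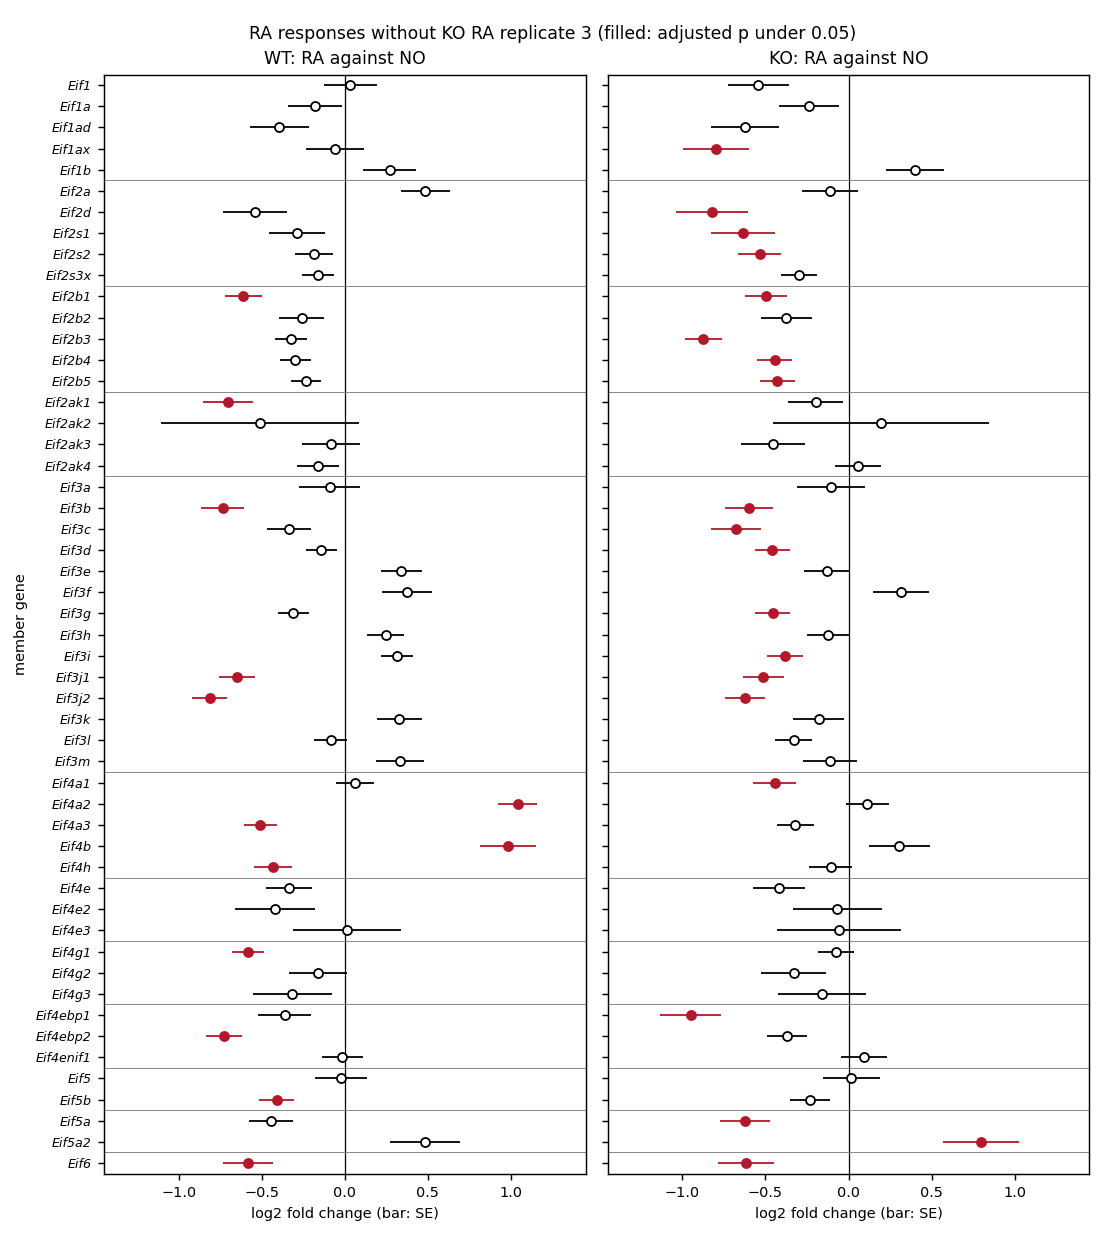
Log2 fold change with its SE for 52 tested members (Eif4ebp3, with an SE above 1, is left out) in the WT response (left) and the KO response (right) to RA, without KO RA replicate 3; filled red points passed an adjusted p of 0.05. Most points are left of 0 in both panels, and Eif4a2 and Eif4b stand at 1.04 and 0.98 in WT and at 0.11 and 0.30 in KO.

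Whether the difference between RA and NO libraries varied with genotype was tested with the interaction term. With all 12 libraries no member passed in edgeR, and none had an unadjusted p under 0.05; no gene of the 16502 tested was called (0% higher and 0% lower), and DESeq2 called no member. Without KO RA replicate 3, 2 members had a lower response in KO, against 0.537% of all genes lower and 0.802% higher. Eif4a2 gave -0.93 ± 0.18 (adjusted p = 0.038, edgeR) and Eif3i, an eIF3 subunit gene, gave -0.70 ± 0.15 (0.0484). Eif4a2 stood at 181, 238 and 200 CPM in KO NO and at 228 and 222 CPM in KO RA replicates 1 and 2, overlapping groups. Every KO NO library was above WT NO (156 to 158 CPM). The overlap in KO depended on TMM factors: without them KO NO was at 211, 262 and 241 CPM and KO RA replicates 1 and 2 at 291 and 272 CPM. With 498 CPM in KO RA replicate 3 the Eif4a2 interaction was -0.42 ± 0.44. Eif3i was at 276, 304 and 275 CPM in WT NO and 356, 352 and 350 CPM in WT RA, but at 327, 339 and 288 CPM in KO NO and 246 and 244 CPM in KO RA replicates 1 and 2. With 1255 CPM in KO RA replicate 3 the Eif3i interaction turned to 0.56 ± 0.74. The Eif4a2 call was kept in 1 of 11 fits that left out a further library and the Eif3i call in 2, with adjusted p up to 0.173 and 0.210. No member was called without any one of WT NO replicates 1 and 2, the WT RA libraries, KO NO replicates 1 and 2 and KO RA replicates 1 and 2, and 1 was called without KO NO replicate 3.

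Eif4a2 and Eif4a1 both encode eIF4A helicases of the cap complex, so their ratio was followed in each library. Eif4a2 made up 8.89%, 8.45% and 10.3% of the summed Eif4a1 and Eif4a2 level in WT NO and 14.6%, 18.1% and 17.03% in WT RA. In KO it made up 11.4%, 12.8% and 12.9% without RA and 17.3%, 17.2% and 16.8% with RA. The 4 groups overlapped only between WT RA and KO RA, and KO NO lay between WT NO and the RA groups. For this share KO RA replicate 3 lay beside the others of its group, although its level of either gene was far from theirs. The log2 ratio differed by 0.97 between WT RA and WT NO and by 0.55 between KO RA and KO NO. The coding sequences of Eif4a1 and Eif4a2 are 77.8% identical.

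**Figure D4:**
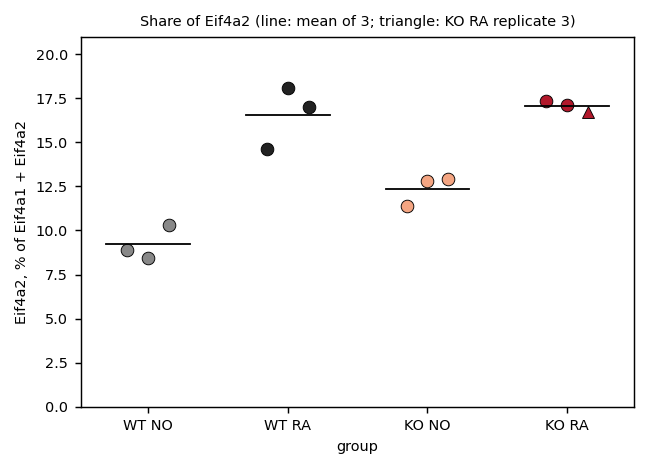
Eif4a2 as a percentage of the summed Eif4a1 and Eif4a2 level in each library, by group, with the mean of 3 as a line. WT NO libraries are at 8.45% to 10.3%, KO NO at 11.4% to 12.9% and the 6 RA libraries at 14.6% to 18.1%.

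Libraries labelled KO RA were then set against WT RA. With all 12 libraries no member passed in edgeR, where 0.885% of all genes were called higher and 0.358% lower; an unadjusted p under 0.05 was reached by 2 members with higher and 5 with lower levels, and DESeq2 called 3 members lower. Once KO RA replicate 3 was left out, no member rose (4.42% of all genes) and 7 fell (5.44% of all genes). The median of the members was -0.07, beside 0.01 for all genes. With all libraries 1 member was above and 8 were below WT RA without overlap, where 9.97% and 10.9% of all genes were. Of the 7, 3 were in the helicase group: Eif4a1 at -0.59 ± 0.13 (adjusted p = 0.0203, edgeR), Eif4a2 at -0.52 ± 0.13 (0.0344) and Eif4b at -0.71 ± 0.19 (0.0406). Eif4b was at 375 and 392 CPM in KO RA replicates 1 and 2, at 107 CPM in replicate 3 and at 565 to 654 CPM in WT RA. Eif4a1 was at 1088 and 1073 CPM in KO RA replicates 1 and 2 and at 1559 to 1683 CPM in WT RA, but at 2476 CPM in KO RA replicate 3. Eif4a2 was at 228 and 222 CPM in KO RA replicates 1 and 2 and at 288 to 344 CPM in WT RA, but at 498 CPM in KO RA replicate 3. With all libraries the values were -0.07 for Eif4a1, -0.02 for Eif4a2 and -1.10 for Eif4b. Eif3i (-0.53), Eif3e (-0.54), Eif5a (-0.55) and Eif2b5 (-0.37) were the others. With all libraries Eif3i and Eif3e turned to 0.72 and 1.26, Eif5a gave -0.30 and Eif2b5 -0.65. Without TMM factors the means of KO RA replicates 1 and 2 lay nearer those of WT RA. They were 1352 against 1499 CPM for Eif4a1, 282 against 299 CPM for Eif4a2 and 479 against 575 CPM for Eif4b. For Eif3i they were 307 against 327 CPM, for Eif3e 325 against 345 CPM and for Eif5a 1066 against 1146 CPM. Eif2b5 was then higher in KO RA, at 44.9 against 42.8 CPM. With 1 further library left out there were 0 calls without WT RA replicate 1 or 3 or KO RA replicate 1 or 2, 2 without WT NO replicate 2 or KO NO replicate 3, 3 without WT RA replicate 2, 4 without KO NO replicate 1 or 2 and 16 without WT NO replicate 3.

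The 4 kinase genes gave values, without KO RA replicate 3, from 0.12 (Eif2ak4) to 0.57 (Eif2ak2) in this comparison, with none called. With all libraries they ran from -0.26 (Eif2ak4) to 0.88 (Eif2ak2), again with none called. Eif2ak3 was at 5.62, 4.51 and 5.06 CPM in WT RA and at 7.94 and 6.71 CPM in KO RA replicates 1 and 2, a log2 difference of 0.52 ± 0.19 (adjusted p = 0.114, edgeR). KO RA replicate 3 was at 1.88 CPM, the lowest of the 12 libraries, and brought it to 0.14 ± 0.40. Eif4g1 gave 0.29 ± 0.11 (0.115), with 172 to 182 CPM in WT RA and 217 and 219 CPM in KO RA replicates 1 and 2. Both comparisons with KO RA and both comparisons with WT NO share libraries, so their values for one gene are not independent.

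Genes that work with the initiation factors were counted from a list of 31, all tested. With all libraries, Dhx29, which encodes a helicase that helps scanning through structured leaders, was lower in KO RA than in WT RA (-1.50 ± 0.29, adjusted p = 0.0358, edgeR) and than in KO NO (-1.21 ± 0.28, 0.0343). It was at 6.95, 6.09 and 6.83 CPM in KO RA, at 15.4 to 24.1 CPM in WT RA and at 12.3 to 18.4 CPM in KO NO, without overlap and with KO RA replicate 3 beside its group. Mtor, which encodes the kinase that phosphorylates the 4E-binding proteins, was lower in KO RA (25.4, 21.5 and 24.4 CPM) than in KO NO (50.5, 41.1 and 41.8 CPM), by 0.90 on the log2 scale (adjusted p = 0.019). No other gene of the list was called with all libraries. In the fit of 11 libraries, without KO RA replicate 3, Pdcd4, which encodes an inhibitor of eIF4A, rose in WT with RA (1.37 ± 0.20, 0.00454) and was higher in KO NO than in WT NO (0.95 ± 0.20, 0.0183). Nck1, an adaptor that brings a phosphatase to eIF2, was higher in KO NO than in WT NO (0.64 ± 0.14, 0.0212). Bzw2, which encodes an eIF5 mimic, was lower (-0.58 ± 0.14, 0.036). In that fit 2 list genes were higher and 1 lower in KO NO against WT NO, 1 and 4 in KO RA against WT RA, 3 and 3 in WT with RA, and 0 and 5 in KO with RA. The shares of all genes called higher and lower in these comparisons were 4.43% and 4.35%, 4.42% and 5.44%, 5.65% and 5.13%, and 8.48% and 7.54%. Atf4 and Ddit3, the transcription factors downstream of eIF2 phosphorylation, were not called in any comparison (Atf4 0.17 ± 0.15 and Ddit3 0.94 ± 0.41 in KO NO against WT NO). Ddit3 was at 4.89 to 8.93 CPM in WT NO, below KO NO (10.6 to 17.8 CPM) and WT RA (10.3 to 32.8 CPM) without overlap. Its value in WT RA against WT NO was 1.40 ± 0.42 (adjusted p = 0.0566, edgeR, without KO RA replicate 3). Atf4 overlapped in both comparisons. Of 14 elongation and termination factor genes, 13 were tested and none was called with all libraries. In the fit of 11 libraries, 0 were called in KO NO against WT NO, 3 were lower in KO RA against WT RA, 3 were higher and 3 lower in WT with RA, and 3 were lower in KO with RA.

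The members were divided in KO RA replicate 3, much as protein-coding genes were in general. It was above all 11 other libraries for 16 members, below all of them for 26 and within their range for 11. These counts depend on its TMM factor: without TMM factors it was above all 11 others for 8 members and below all of them for 41. Against the mean of KO RA replicates 1 and 2, the log2 ratio ran from -1.96 (Eif2ak4, 2.67 CPM against 10.4 and 10.5 CPM) to 3.17 (Eif3m, 1458 CPM against 161 and 164 CPM). The subunit genes of single complexes were on opposite sides: Eif3m, Eif3e and Eif3i were more than 2-fold above and Eif3a, Eif3b, Eif3c, Eif3d and Eif3f more than 2-fold below. Without TMM factors 5 members were more than 2-fold above and 37 more than 2-fold below, and Eif3i, at 0.69, was no longer 2-fold above. For comparison, replicates 1 and 2 differed by a median of 0.0892 on the log2 scale. With TMM factors 25% of 52 members were more than 2-fold above and 30.8% more than 2-fold below. Of 13105 protein-coding genes 22.3% and 35.3% were, so the division was close to that of genes in general. The share of all genes outside the range of the other 11 libraries was not computed. The ratio had a Spearman coefficient of -0.46 with coding length and of -0.51 with transcript GC content across 52 members, which share the library and are not independent, and of -0.45 and -0.36 across 13105 protein-coding genes. With TMM factors the 13 members more than 2-fold above had a median coding length of 993 bases and 43.6% GC, and the 16 more than 2-fold below 2571 bases and 51.1% GC. The part of length and GC content in the differences was not tested.

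**Figure D5:**
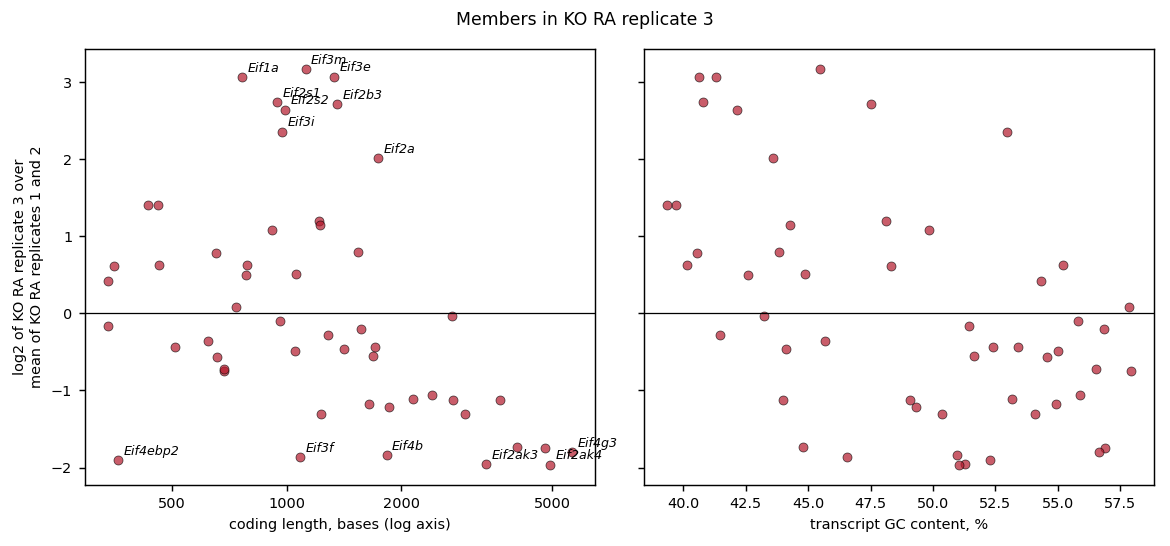
Log2 ratio of KO RA replicate 3 to the mean of KO RA replicates 1 and 2 for 52 members, against coding length in bases (left, log axis) and transcript GC content in percent (right). Ratios run from -1.96 to 3.17, and the members more than 2-fold below have a median coding length of 2571 bases, against 993 bases for those more than 2-fold above.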

How the data were processed

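Polyadenylated RNA from 12 NE-4C cultures was sequenced. According to the methods, the authors ran the default nf-core RNA-seq pipeline (STAR and Salmon) on GRCm39. The deposited table holds estimated counts scaled from TPM, not whole reads, so they are corrected for gene length and were rounded here to whole numbers. Across 3851 genes with a value above 0 in 1 library, level and exonic length had a Spearman coefficient of -0.685. Genes passing filterByExpr (16502; 17327 without KO RA replicate 3) were fitted with edgeR 4.0.16 (R 4.3.3) in 1 quasi-likelihood model with a coefficient per group and TMM factors. Benjamini-Hochberg adjustment ran over all genes, with a threshold of 0.05. DESeq2 1.42.0 and limma 3.58.1 were alternatives. The procedure was tested on simulated data with no outlying library and a smaller spread than in the fit of all 12 libraries. Levels are CPM with TMM factors. A library's floor is 3 estimated counts, which are not whole reads, so it is approximate. Floors cover counting error only, whereas the SE of a fold change comes from the fit and includes the spread between libraries. Full statistics were given for members called with or without KO RA replicate 3 and for a fixed set of kinase, repressor and eIF5A genes. Members and gene lists were chosen with earlier results of these data known. Promoters are RefSeq's. Gene positions come from GENCODE annotation of GRCm39.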

Additional observations from a re-analysis of the deposited data

Results flagged for a closer look

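The difference between RA and NO libraries varied with genotype for 2 members by the interaction test without KO RA replicate 3. Eif4a2 differed by -0.93 on the log2 scale (adjusted p = 0.038, edgeR). It rose in WT and its groups overlapped in KO, where the untreated level was above that of WT NO (181 to 238 against 156 to 158 CPM). Without TMM factors Eif4a2 was higher in KO RA replicates 1 and 2 (291 and 272 CPM) than in KO NO (211 to 262 CPM). Eif3i differed by -0.70 (adjusted p = 0.0484, edgeR), with higher values after RA in all WT libraries and lower ones in KO RA replicates 1 and 2. With all 12 libraries neither passed, with adjusted p of 0.783 and 0.833. Groups of 3 are too small for a test of single outlying libraries.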

How the results depend on the processing

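KO RA replicate 3 decided most calls: without it the members called were 3 by genotype in untreated cells, 7 by genotype in RA-treated cells, 13 by RA in WT, 20 by RA in KO and 2 in the interaction, where all libraries gave 0, 0, 0, 1 and 0. Over the fits that left out each of the 12 libraries, the counts ran from 0 to these values. Leaving it out turned some log2 fold changes negative: in KO RA against WT RA, Eif3e (leave-one-out range -0.54 to 1.80) and Eif3i (-0.53 to 1.17); in KO RA against KO NO, Eif2b3 (-0.87 to 1.15), Eif2s1 (-0.64 to 1.40), Eif2s2 (-0.54 to 1.43), Eif3i (-0.38 to 1.32) and Eif4a1 (-0.45 to 0.35); and the interaction of Eif3i (-0.70 to 1.02). With limma-voom and sample quality weights on all libraries, Eif3i against WT RA was at -0.48, and against KO NO Eif2b3 was at -0.83, Eif2s1 at -0.59 and Eif4a1 at -0.40. That test called 8, 11, 23, 24 and 1 members in the 5 comparisons, and DESeq2 called 1, 3, 5, 12 and 0. Fits of the compared groups alone called 1, 0, 8 and 0. Keeping genes with at least 1 count in any library gave 0 calls in KO RA against KO NO; a minimum of 10 counts in every library gave 1, higher where the main call was lower.

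Further alternatives without KO RA replicate 3 were chosen after seeing the data. Leaving out each other library in turn gave 0 to 7, 0 to 16, 9 to 26, 1 to 28 and 0 to 3 calls, each highest without WT NO replicate 3, in which 10 of 53 members lay more than 1.5-fold from their group. DESeq2 called 8, 13, 20, 26 and 5 members and limma-voom 9, 14, 29, 29 and 5. DESeq2 size factors in edgeR gave 3, 6, 13, 19 and 2. The shares of all genes called in these alternatives were not computed, so larger counts may reflect tests that call more genes everywhere. Without TMM factors the summed level of the tested members was 11099 CPM in WT RA (11987 with them) and 14299 CPM in KO NO (12390).

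Replicate numbers did not pair the libraries: same-numbered deviations correlated between -0.238 and 0.0507. With the replicate block on all libraries no member was called in any comparison, so the call for Eif2d was lost. Without KO RA replicate 3 the replicate block gave 2, 3, 10, 13 and 0 calls. The cause of these differences was not tested. Where a lone KO RA library remained, it was assumed to vary like the other groups. Simulated data were used to check the fits, but with a smaller spread and no outlying library. That check therefore does not cover the effect of KO RA replicate 3.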
